A study of Mus musculus with 73 samples.

Results

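Chromosome 5 control contacts are the 5C primer pairs whose forward and reverse fragments both lie on mouse chromosome 5, in a window far from the X-linked region that the study edited. They were chosen by the chromosome of the 2 fragments in the primer lists, without regard to any count. There were 676 such pairs, from 26 forward and 26 reverse primers, among 297498 forward by reverse pairs in all. As background served the 27014 pairs of 1 fragment on chromosome 5 and 1 on the X chromosome, called trans pairs here. The remaining 269808 pairs had both fragments on the X.

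Chromosome conformation capture carbon copy (5C) fixes cells, cuts and ligates their chromatin, and then counts ligation products between 2 sets of restriction fragments with primers that anneal at the ligated ends. Fragments of the same chromosome that lie near each other are ligated often, and the frequency falls with genomic distance. Ligations between chromosomes are rare in intact nuclei, so products joining different chromosomes are commonly read as the background of a library. A control window on an autosome shows how a library behaves where no edit was made. The X window holds the X-inactivation centre (Xic), the region that controls Xist, the RNA that silences an X chromosome, and Tsix, its antisense repressor. Xite is an element known as an enhancer of Tsix.

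The 10 libraries came from feeder-independent male mouse embryonic stem cells of the E14Tg2a line, grown in serum with leukaemia inhibitory factor, which carry a pair of chromosomes 5 and a lone X. There were 2 libraries each of XiteE-del (a deletion, clones F11 and G11), XiteE-inv (an inversion, both libraries labelled clone #4), XiteC-del (clones E2 and E5), XiteC-inv (clones 62 and 65) and the unedited E14 wild type (WT) deposited with them. The labels do not explain the letters E and C after Xite. The XiteE-inv libraries carry the same clone label and WT is 1 parental line, so p-values measure the spread between these libraries, which may in part be technical. The deposited values were counts per primer pair, and the library totals were between 16267499 and 23928188 counts. Levels are given as CPM, the counts of a pair or fragment scaled by the total count of its library to the customary common total. The counts come from PCR products without stated molecular identifiers, so intervals cover counting error only.

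The chromosome 5 window spans chr5:133246157-133472010 (mm9), 226 kb in 52 fragments that alternate between forward and reverse. Its fragments are 318 to 12953 bp long with a median of 3301 bp. They adjoin each other except at 1 gap of 14.3 kb at chr5:133352421-133366718, which leaves 23 fragments before it and 29 after it. The X window spans chrX:98831149-103425147. Genes of the chromosome 5 window are not named, because no annotation of the mm9 build was used here. Fragments carry the names of the primer lists, in which the chromosome 5 fragments are numbered from gd5_FOR_56 to gd5_REV_110 along the window.

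2 libraries stood apart from the other 8, and both carry the code B101 in their labels, while the others carry B100. They are the second XiteE-inv library and the second WT library. The labels do not say what the codes mean. XiteE-inv and WT each hold 1 library of either code, so the codes could be compared within these genotypes, while the 3 other genotypes hold B100 libraries only. Values are given by library or by code where these 2 libraries move them.

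The share of counts in chromosome 5 pairs was higher in both B101 libraries than in every B100 library, where it was close to 1%. It was 0.966% and 1.06% in XiteE-del, 0.947% and 1.35% in XiteE-inv, 1.02% and 1.01% in XiteC-del, 0.988% and 1.02% in XiteC-inv, and 1.00% and 1.30% in WT. In XiteE-inv and WT alike the second value is the B101 library, and the 8 B100 libraries overlap across all genotypes. The mean was 1.05% ± 0.128 (SD, n = 8) in the edited libraries and 1.15% ± 0.211 (SD, n = 2) in WT. The difference of -0.106 percentage points was smaller than the spread between the WT libraries (exact permutation test, two-sided, p = 0.578, adjusted p = 0.578 over the 4 single-value tests). Among the B100 libraries alone it was -0.00051 points (exact permutation p = 1.0, with 0.25 the smallest p this comparison allows). With 2 libraries against 2, no single genotype can fall below p = 0.333 in an exact test.

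The trans share ran the other way. It was 1.71% and 1.56% in XiteE-del, 1.76% and 0.281% in XiteE-inv, 1.23% and 1.497% in XiteC-del, 1.60% and 1.202% in XiteC-inv, and 1.71% and 0.282% in WT. The B101 libraries held 6.25 times less of it than the B100 library of the same genotype in XiteE-inv, and 6.05 times less in WT. For the second XiteE-inv library the 95% Wilson interval of the share is 0.278% to 0.283%, so counting error is far smaller than the gap between the codes. The edited mean was 1.36% ± 0.479 (SD, n = 8) and the WT mean 0.993% ± 1.01 (SD, n = 2), a difference of 0.362 points (exact permutation p = 0.578, adjusted p = 0.578). Without the B101 libraries the difference turned to -0.196 points (exact permutation p = 0.75). Neither share separated the edited genotypes from WT beyond the spread between libraries, and the direction of the trans difference rested on the B101 libraries.

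**Figure D1:**
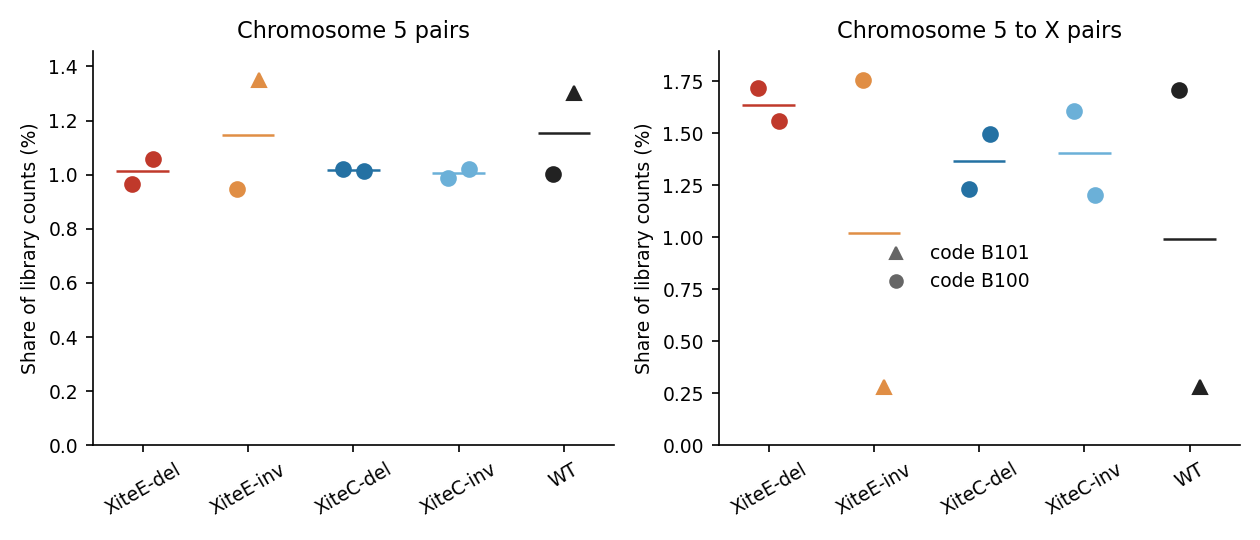
Share of each library's counts (%) in chromosome 5 pairs (left) and in chromosome 5 to X pairs (right), with 2 libraries per genotype, the genotype mean as a line, triangles for code B101 and circles for code B100. The triangles at 1.35% and 1.30% lie above all circles on the left, and at 0.281% and 0.282% below all circles on the right.

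Per trans count there were 4.81 chromosome 5 counts in the B101 library of XiteE-inv and 4.62 in that of WT, against 0.539 to 0.850 in the B100 libraries. The mean level per chromosome 5 pair was 19.97 and 19.3 CPM in the B101 libraries of XiteE-inv and WT, against 14.003 to 15.7 CPM in B100 libraries. The mean level per trans pair was 0.104 CPM in both B101 libraries, against 0.445 to 0.650 CPM in B100 libraries. The chromosome 5 contacts therefore stood above the trans level in every library, and by more in the B101 libraries.

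Chromosome 5 contacts fell with distance up to the class from 80 kb in every library but the first XiteC-inv library. They differed little between that class and the last. For the 69 pairs under 10 kb apart the mean level per pair was 87.3 to 96.0 CPM in the B101 libraries and 54.1 to 63.8 CPM in the B100 libraries. It was 32.6 to 32.9 against 20.7 to 23.5 CPM for the 53 pairs 10 to 20 kb apart, and 16.6 to 17.0 against 11.8 to 13.6 CPM for the 92 pairs 20 to 40 kb apart, B101 against B100. The codes met at 40 to 80 kb, where the 190 pairs were at 10.52 to 11.1 CPM in B101 and 10.999 to 12.03 CPM in B100 libraries. The 221 pairs 80 to 160 kb apart were at 5.81 to 5.92 CPM in B101 and 4.61 to 5.57 CPM in B100 libraries, and the 51 pairs beyond 160 kb at 5.80 to 5.87 CPM in B101 and 3.82 to 5.26 CPM in B100 libraries. The level thus fell little between the class from 20 kb and that from 40 kb in most B100 libraries. It rose from 11.8 to 12.03 CPM in the first XiteC-inv library. A single pair, gd5_FOR_76 to gd5_REV_61, gave 2.28% of the counts of the 40 to 80 kb class in the B101 library of XiteE-inv and 2.70% in that of WT, but 27.8% to 39.3% in B100 libraries. Without it, that class was at 10.3 and 10.9 CPM in the B101 libraries of XiteE-inv and WT and at 7.35 to 8.15 CPM in the B100 libraries.

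The decay exponent is the slope of log10 mean level on log10 distance over the 5 distance classes from 10 kb. It averaged -0.64 ± 0.044 (SD, n = 8) in the edited libraries and -0.69 ± 0.045 (SD, n = 2) in WT. The difference of 0.050 was close to 1 SD of either group and did not pass the test (exact permutation p = 0.267, adjusted p = 0.533). It was 0.030 among the B100 libraries, and it turned to -0.025 with the median level per pair in place of the mean. By code, the exponent was -0.72 in both B101 libraries and between -0.67 and -0.59 in the B100 libraries. On the X, the exponent over the same classes was -0.95 to -0.84, steeper than on chromosome 5 in all 10 libraries. The X levels were set at the mean distances of the chromosome 5 pairs. Those averaged 183 kb in the last class, while its X pairs lay up to 320 kb apart. The slopes thus do not rest on the same distances, and the part of this in the steeper X slope was not tested.

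In matched distance classes, chromosome 5 pairs were lower than X pairs in all 10 libraries. Averaged over the 5 classes, they reached 57.4% and 62.2% of the X level in XiteE-del, 59.7% and 61.6% in XiteE-inv, 56.9% and 58.3% in XiteC-del, 57.0% and 57.9% in XiteC-inv, and 59.9% and 60.7% in WT. All genotypes and both codes fell in this narrow range of averages, but the codes differed by class. At 10 to 20 kb the B101 libraries of XiteE-inv and WT were at 49.1% and 49.8% of X, against 42.3% to 46.7% in B100 libraries. At 40 to 80 kb they were at 61.8% and 62.6%, against 70.4% to 84.2%. The latter class holds gd5_FOR_76 to gd5_REV_61. At 80 to 160 kb the codes overlapped. Beyond 160 kb the B101 libraries of XiteE-inv and WT were at 96.6% and 92.0%, against 68.8% to 91.5% in B100 libraries. The mean log2 ratio was -0.76 ± 0.047 (SD, n = 10), with the smallest p that an exact sign-flip permutation test over 10 libraries can give, 0.00195 (two-sided, adjusted p = 0.00781). The libraries share 1 set of primers, so the test covers the spread between libraries and not that between windows or primers. With the median level per pair the mean log2 ratio was -1.54, and with the classes from 40 kb alone it was -0.51. By class the median over libraries was lowest at 10 to 20 kb, at 43.9% of X (42.3% to 49.8%), and highest beyond 160 kb, at 84.6% of X (68.8% to 96.6%). In that last class the chromosome 5 pairs averaged 183 kb, while X pairs lay up to 320 kb apart. Distance was thus not matched within it.

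**Figure D2:**
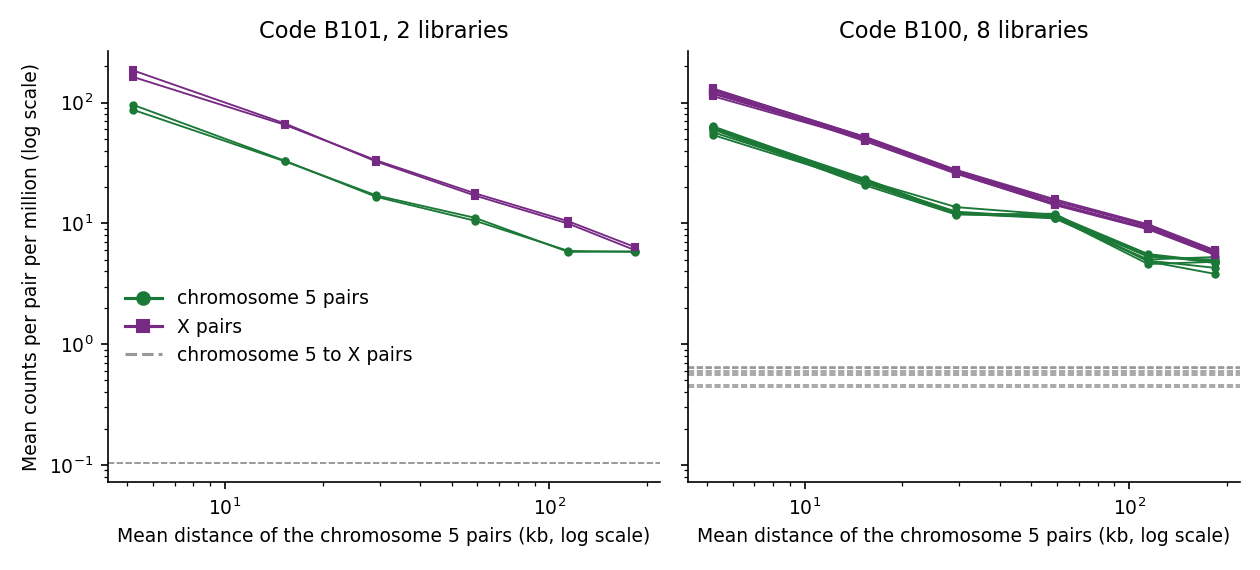
Mean level per pair (CPM, log scale) against the mean distance of the chromosome 5 pairs of each class (kb, log scale), 1 line per library, for chromosome 5 pairs (green circles) and X pairs of the same distance class (purple squares), with the mean trans level as dashed lines, in the 2 libraries of code B101 (left) and the 8 of code B100 (right). Chromosome 5 lies below X in every class, and the dashed lines are at 0.104 on the left and 0.445 to 0.650 on the right.

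The distance between the farthest chromosome 5 contacts and the trans level differed by code. Beyond 160 kb, chromosome 5 pairs were 55.8 and 56.2 times the trans level in the B101 libraries, against 6.43 to 11.2 times in B100 libraries. X pairs more than 2 Mb apart stood nearer to trans, at 2.62 and 2.80 times the trans level in B101 libraries and 1.42 to 1.55 times in B100 libraries. Within genotype, B101 over B100 was 1.78 in XiteE-inv and 1.41 in WT for chromosome 5 pairs under 10 kb. It was 0.956 in XiteE-inv and 0.984 in WT at 40 to 80 kb, the class that holds gd5_FOR_76 to gd5_REV_61, and 1.10 in XiteE-inv and 1.22 in WT beyond 160 kb. For X pairs over 2 Mb apart it was 0.295 in XiteE-inv and 0.315 in WT, and for trans pairs 0.160 and 0.165. Without that pair the 40 to 80 kb class was at 10.3 CPM in the B101 and 7.65 CPM in the B100 library of XiteE-inv. In WT it was at 10.9 and 7.99 CPM. In both genotypes the B101 library thus held relatively more counts on chromosome 5 in every distance class but 40 to 80 kb. It held more there too once gd5_FOR_76 to gd5_REV_61 was left out. It held fewer between X fragments over 2 Mb apart and in trans.

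Most chromosome 5 pairs were seen in most libraries, while most trans pairs were seen in few. Between 526 and 574 of the 676 chromosome 5 pairs had a count in a given library, 474 had one in all 10, and 81 in none. All 81 involve at least 1 of the 5 fragments that had under 2500 counts with chromosome 5 partners summed over the libraries. These are gd5_FOR_68, gd5_FOR_78, gd5_FOR_97, gd5_REV_102 and gd5_REV_108. gd5_FOR_97 and gd5_REV_108 had 0 of the chromosome 5 counts of the 10 libraries together, which allows each a share of up to 0.000144%. Of the trans pairs, 7.81% had a count in the B101 library of XiteE-inv and 8.68% in that of WT, against 21.3% to 29.8% in the B100 libraries. Only 325 trans pairs (1.203%) had a count in all 10 libraries, and they held 41.9% of the trans level. The median count of a trans pair that was seen ranged from 3 to 36 between libraries. In 6259 trans pairs (23.2%) the counts came from 1 library alone, and 6652 (24.6%) had none.

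**Figure D3:**
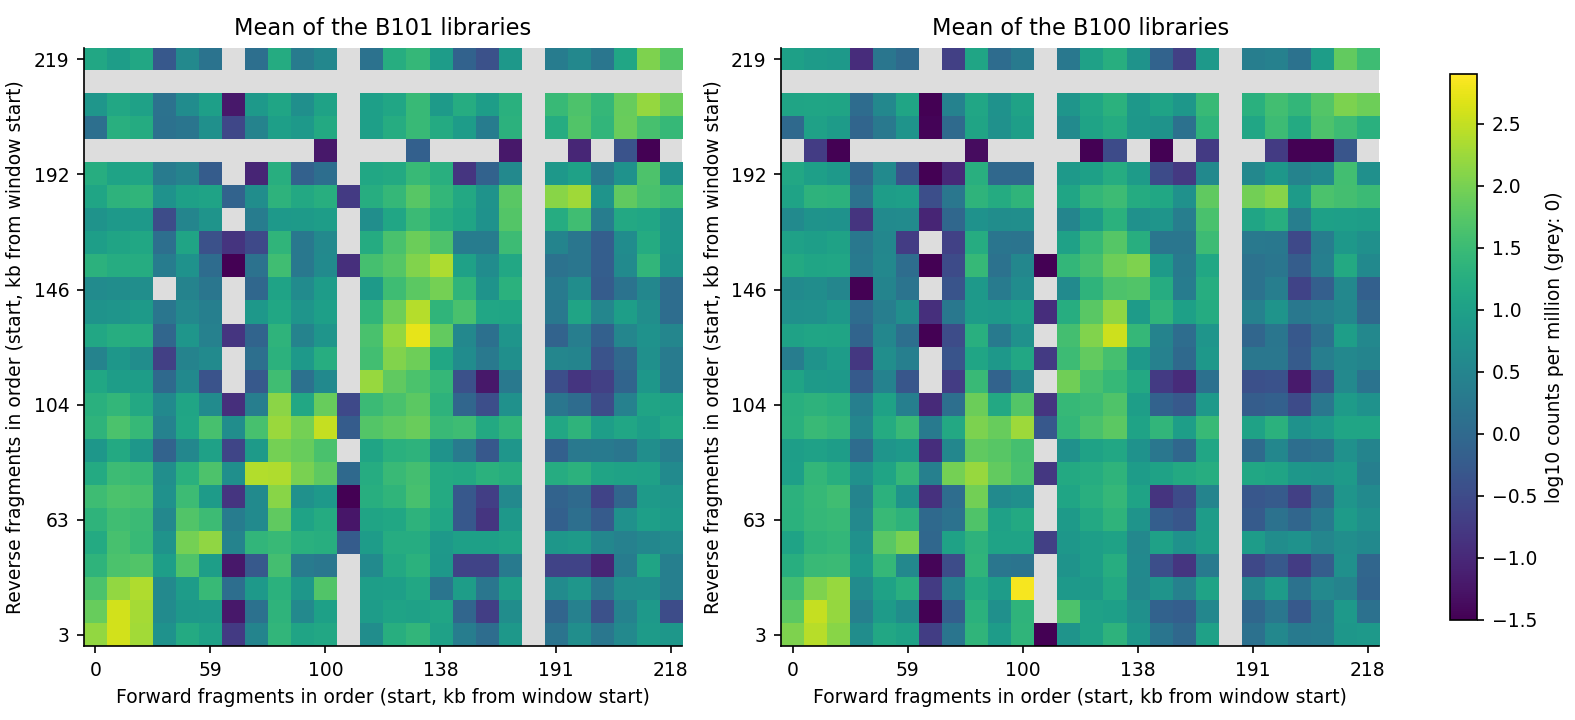
Contact map of the chromosome 5 window, with forward fragments across and reverse fragments up, both in order and marked by the kb from the window's start, and log10 mean CPM as colour, for the 2 libraries of code B101 (left) and the 8 of code B100 (right). The grey rows and columns are fragments with no or few counts, and the brightest cell on the right is the gd5_FOR_76 to gd5_REV_61 pair, with 51.3 CPM on the left and 680 on the right.

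The 5 chromosome 5 pairs with the highest mean level held 16.9% of the mean chromosome 5 level, against a median pair at 4.94 CPM. The first of them is not a short contact. gd5_FOR_76 (chr5:133346648-133349660) and gd5_REV_61 (chr5:133272480-133275820) lie 74.0 kb apart. Their pair was at 594 and 740 CPM in XiteE-del, 644 and 45.5 CPM in XiteE-inv, 589 and 656 CPM in XiteC-del, 898 and 686 CPM in XiteC-inv, and 637 and 57.0 CPM in WT. Its rank among all chromosome 5 pairs was 66 and 52 in the B101 libraries of XiteE-inv and WT, and 1 in each of the 8 B100 libraries. Within genotype it was 14.1 times lower in the B101 library of XiteE-inv and 11.2 times lower in that of WT.

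The other 4 pairs link fragments that adjoin or nearly adjoin each other, and they were higher in the B101 libraries. gd5_FOR_87 to gd5_REV_86, 3.47 kb apart at chr5:133375816-133382754, was at 336 and 341 CPM in XiteE-del, 303 and 568 CPM in XiteE-inv, 377 and 394 CPM in XiteC-del, 425 and 404 CPM in XiteC-inv, and 362 and 523 CPM in WT. gd5_FOR_58 to gd5_REV_59, 3.17 kb apart, was at 422 and 384 CPM in the B101 libraries of XiteE-inv and WT and between 298 and 361 CPM in the B100 libraries. For gd5_FOR_58 to gd5_REV_57, 8.88 kb apart, B101 over B100 was 1.51 in XiteE-inv and 1.22 in WT. For gd5_FOR_76 to gd5_REV_75, 6.25 kb apart, it was 1.99 in XiteE-inv and 1.501 in WT. The same forward fragment, gd5_FOR_76, therefore gave a higher level with its neighbour and a lower one with gd5_REV_61 in the same B101 libraries.

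**Figure D4:**
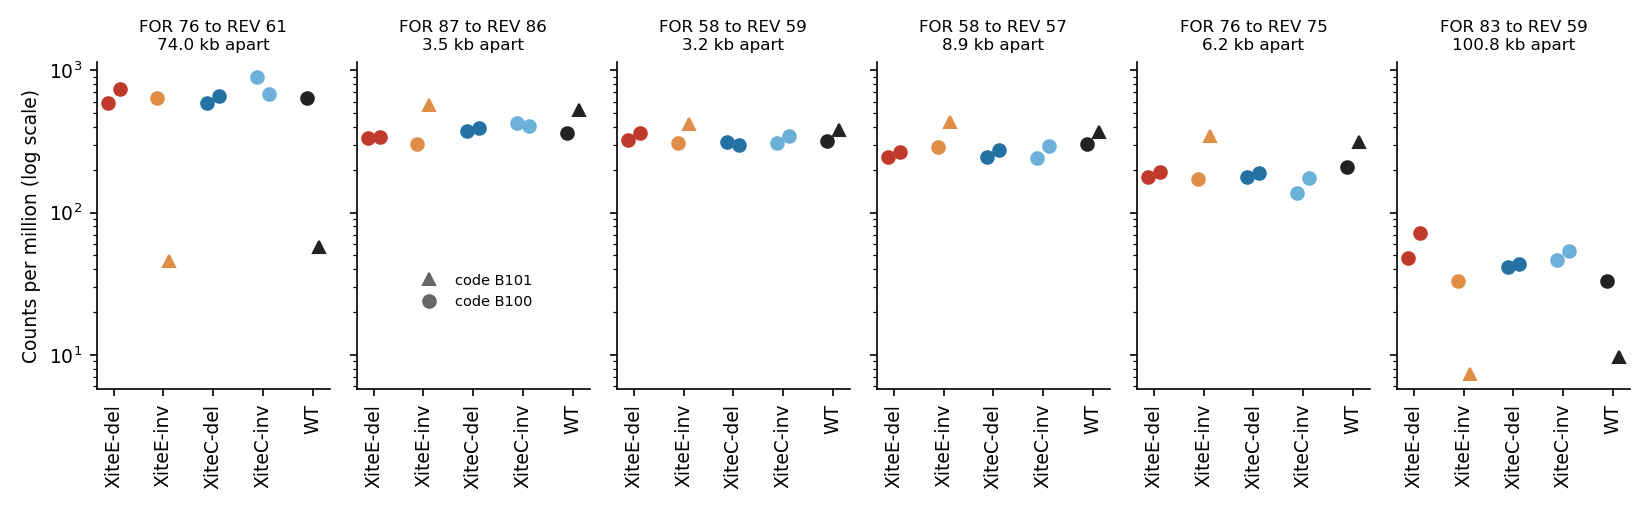
Level of 6 chromosome 5 pairs (CPM, log scale) by genotype and library, with triangles for code B101 and circles for code B100. In gd5_FOR_76 to gd5_REV_61 and in gd5_FOR_83 to gd5_REV_59, 74.0 and 100.8 kb apart, the triangles lie below all circles, and in the 4 short pairs they lie above the circles of their own genotype.

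Within the window, contacts of the same distance class were higher before the gap than after it in most classes. For pairs 40 to 80 kb apart, without gd5_FOR_76 to gd5_REV_61, the level was 11.4 to 16.8 CPM over the 43 pairs before the gap and 4.87 to 7.61 CPM over the 76 pairs after it in the 10 libraries, and 7.32 to 11.1 CPM over the 70 pairs across it. For pairs under 10 kb it was 76.4 to 125 CPM over the 28 pairs before the gap and 38.6 to 76.3 CPM over the 41 pairs after it. In each library the side before the gap was the higher one in both classes. Pairs across the gap were not the lowest at 20 to 40 kb, where they stood at 12.2 to 23.3 CPM, against 11.02 to 16.4 CPM before the gap and 10.1 to 15.0 CPM after it. In that class the side before the gap was the lower one in the first XiteE-del library, at 11.2 against 12.9 CPM. The same held in the first XiteE-inv library, at 11.02 against 11.4 CPM. Primers can differ in how well they amplify, and the part of this in the difference was not tested.

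Distance accounted for 20.5% of the variance of log2 mean level over the 474 pairs seen in all libraries, and distance with the trans sums of both fragments for 22.9%. Trans sums alone accounted for 1.76%. These are descriptions over pairs that share fragments and libraries, and pairs of the 5 fragments with few chromosome 5 counts are mostly not among the 474. Of the 264 such pairs over 50 kb apart, the 3 farthest above the level that distance and trans sums gave were gd5_FOR_76 to gd5_REV_61 at 73.8 times that level, gd5_FOR_83 to gd5_REV_59 at 8.49 times and gd5_FOR_60 to gd5_REV_98 at 5.44 times. gd5_FOR_83 to gd5_REV_59, 100.8 kb apart, was at 48.2 and 72.2 CPM in XiteE-del, 32.9 and 7.28 CPM in XiteE-inv, 41.4 and 43.7 CPM in XiteC-del, 46.5 and 53.3 CPM in XiteC-inv, and 33.3 and 9.59 CPM in WT. gd5_FOR_60 to gd5_REV_98, 163 kb apart, was at 31.1 and 17.0 CPM in the B101 libraries of XiteE-inv and WT and ranged from 7.15 to 29.1 CPM in B100 libraries. The first and second of these pairs thus lay lower in both B101 libraries than in all B100 libraries, and the other one did not. The 3 farthest below were gd5_FOR_93 to gd5_REV_63, gd5_FOR_103 to gd5_REV_63 and gd5_FOR_93 to gd5_REV_110, with means of 0.170, 0.169 and 0.249 CPM.

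The fragments of the window differed widely in what they gave with the X. Trans sums averaged 1206 CPM for gd5_REV_106 (chr5:133451389-133459115), 1185 CPM for gd5_FOR_85 (chr5:133371512-133375815) and 1048 CPM for gd5_FOR_62 (chr5:133275821-133287981). These 3 of 52 fragments held 26.8% of the trans level. The lowest sums were 2.74 CPM for gd5_REV_108, 6.04 CPM for gd5_FOR_78 and 6.70 CPM for gd5_FOR_97. gd5_FOR_97 thus gave trans counts with 351 of 528 X partners, although it had 0 counts on its own chromosome. Across the 52 fragments the Spearman correlation of the cis and trans sums was 0.430, and that of fragment length and trans sum 0.119, both as descriptions over fragments of the same libraries.

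gd5_FOR_62 stood out in both directions. It had the third highest trans sum but ranked 47th of 52 by counts with chromosome 5 partners, at 56.8 CPM, a cis sum of 0.0542 of its trans sum. Its trans sum was spread over 497 of 528 X partners, of which the highest gave 6.32%. By contrast, 1 X partner gave 58.9% of the trans sum of gd5_REV_106, 59.5% of that of gd5_FOR_76 and 62.3% of that of gd5_FOR_99. All 52 fragments had lower trans sums in both B101 libraries than in any B100 library. The median fragment was 8.12 times lower in the B101 than in the B100 library of XiteE-inv, and 6.97 times lower in WT. gd5_FOR_62 was only 1.29 times lower in XiteE-inv, at 850 against 1096 CPM, and 1.24 times lower in WT, at 815 against 1012 CPM.

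**Figure D5:**
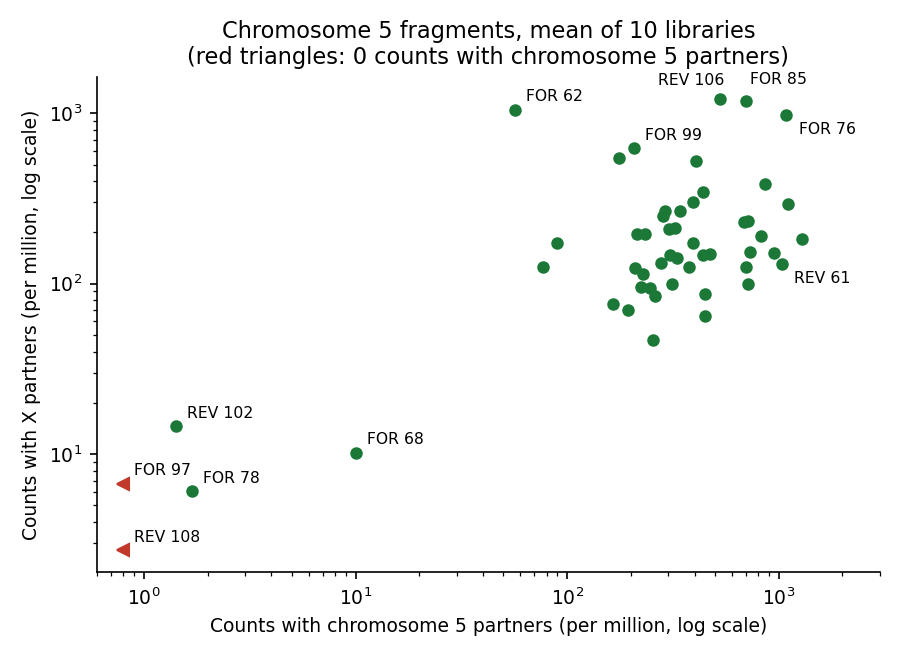
Mean CPM with X partners (log scale) against mean CPM with chromosome 5 partners (log scale) for each of the 52 chromosome 5 fragments, over 10 libraries, with fragments at 0 on the horizontal axis drawn as red triangles at its left edge. gd5_FOR_62 is at 56.8 on the horizontal and 1048 on the vertical axis, and the 5 fragments with few chromosome 5 counts also have the lowest trans sums.

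The 3 highest trans pairs were at the level of the highest chromosome 5 contacts in the B100 libraries. The 10 highest of 27014 held 17.8% of the trans level, and the first 3 held 13.1%. XIC-3_FOR_1377 (chrX:102979695-102983568) to gd5_REV_106 was at 1565 and 845 CPM in XiteE-del, 1387 and 58.6 CPM in XiteE-inv, 232 and 685 CPM in XiteC-del, 1057 and 205 CPM in XiteC-inv, and 1030 and 32.9 CPM in WT. It varied widely among the B100 libraries as well as between the codes. gd5_FOR_76 to XIC-3_REV_1391 (chrX:103015640-103016349) was at 606 and 693 CPM in XiteE-del, 683 and 80.2 CPM in XiteE-inv, 638 and 662 CPM in XiteC-del, 881 and 741 CPM in XiteC-inv, and 749 and 49.2 CPM in WT. It and gd5_FOR_99 to XIC-3_REV_829 (chrX:101355755-101356465), at 22.3 and 21.6 CPM in B101 libraries and 383 to 533 CPM in B100 libraries, varied less across the B100 libraries. gd5_FOR_76 thus had an X partner at about the level of its gd5_REV_61 contact, and both pairs were low in the B101 libraries.

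Whether the X edits changed chromosome 5 contacts was asked with a fit over every primer pair that averaged 10 or more counts, 153097 in number, of which 520 were on chromosome 5 and 4541 in trans. edgeR's quasi-likelihood test with Benjamini-Hochberg adjustment over all of them called 0 chromosome 5 pairs in XiteE-del, where 0.109% of all pairs were called. It called 0 in XiteE-inv, where 0.00914% of all pairs were called, and 0 in XiteC-del, where 0.0790% were called. In XiteC-inv it called 1, where 0.0209% of all pairs were called. The spread between libraries of a genotype was large, with a biological coefficient of variation of 1.42 over all pairs, and with simulated counts of that spread the fit called hardly any changed pair. The simulation gave every pair the same spread, and the spread of the chromosome 5 pairs alone was not simulated. The counts of 0 do not by themselves show that chromosome 5 contacts were unchanged. At an unadjusted p under 0.05 there were 12 chromosome 5 pairs in XiteE-del (2.31%, beside 3.57% of all pairs tested), 2 in XiteE-inv (0.385% beside 2.10%), 5 in XiteC-del (0.962% beside 1.52%) and 9 in XiteC-inv (1.73% beside 1.77%). In no genotype did the share of chromosome 5 pairs exceed that of all pairs, and in XiteC-inv the shares were nearly equal. DESeq2 called 1 in XiteE-del and 0 in the other genotypes. The median log2 fold change over the 520 chromosome 5 pairs was -0.20 in XiteE-del beside 0 over all pairs tested, 0.01 in XiteE-inv beside 0, -0.14 in XiteC-del beside 0.07, and -0.24 in XiteC-inv beside 0.01. With the chromosome 5 total as offset the chromosome 5 median was -0.02 in XiteE-del, 0.03 in XiteE-inv, 0.04 in XiteC-del and -0.02 in XiteC-inv, so the sign for XiteC-del turned. With the code as a covariate it was 0.12 in XiteE-del beside 0.22 over all pairs, 0.03 in XiteE-inv beside -0.06, 0.19 in XiteC-del beside 0.35, and 0.12 in XiteC-inv beside 0.29. The lower medians of the genotypes that hold no B101 library thus turned upward once the code was in the fit, and then lay below those of all pairs.

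The 1 call was gd5_FOR_76 to gd5_REV_61, higher in XiteC-inv than in WT by 1.19 ± 0.27 (log2, SE; edgeR adjusted p = 0.0407). Both XiteC-inv libraries have the code B100, and WT has 1 library of each. With the code as a covariate the log2 fold change was 0.23 ± 0.14 (edgeR adjusted p = 1), and without the second WT library it was 0.31 ± 0.34 (edgeR adjusted p = 0.956). Without the first WT library it was 3.796 ± 0.40 (edgeR adjusted p = 8.76e-18). The pair was called in 6 of 18 alternatives. Its size turned on which WT library it was set against. Its call was also lost without either XiteE-del or either XiteC-del library, at an unchanged fold change of 1.19 and larger standard errors. The call was lost likewise without the first XiteE-inv library and without either XiteC-inv library. With the code as a covariate gd5_FOR_74 to gd5_REV_106 was called higher in XiteE-del, XiteC-del and XiteC-inv, and gd5_FOR_89 to gd5_REV_94 in XiteC-del. In gd5_FOR_74 to gd5_REV_106 the B100 libraries of XiteE-inv and WT were at 0, so no fold is given. These pairs were singled out after their values were seen.

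No X fragment passed the test by its trans sum in any edited genotype against WT. Over the 1058 fragments with a mean trans sum of at least 10, with the trans total as offset, edgeR called 0 X fragments in each of the 4 genotypes, where 0% of all fragments were called. The coefficient of variation of trans sums was 0.838, and here too the fit missed nearly all changes in counts simulated with such a spread. At an unadjusted p under 0.05 there were 32 of 1006 X fragments in XiteE-del, 35 in XiteE-inv, 20 in XiteC-del and 24 in XiteC-inv. Over all 1058 fragments the share was 3.02% in XiteE-del, 1.89% in XiteC-del and 2.27% in XiteC-inv, and 36 fragments passed in XiteE-inv. DESeq2 called 2 X fragments in XiteE-del, 5 in XiteE-inv, 0 in XiteC-del and 1 in XiteC-inv. Its share over all fragments is not reported here. Of the 4541 single trans pairs tested, edgeR called 1 in XiteE-del, where 0.109% of all pairs were called. It called 1 in XiteC-del, where 0.0790% were called. Both were singled out after their values were seen. XIC-3_FOR_1377 to gd5_REV_106 was higher in XiteE-del by 1.18 (log2; edgeR adjusted p = 0.00489) and was called in 7 of 18 alternatives. Without the second WT library, of code B101, it was at 0.23 (edgeR adjusted p = 0.942), and without the first at 5.19 (edgeR adjusted p = 4.85e-31). XIC-3_FOR_133 to gd5_REV_100 was lower in XiteC-del, at -1.68 (log2; edgeR adjusted p = 0.0132), at 38.6 and 110 CPM in XiteC-del against 474 and 0.615 CPM in WT. It was called in 9 of 18 alternatives, and was at -2.68 without the second WT library and at 6.90 without the first, so its sign turned. The median log2 fold change over all 4541 trans pairs tested was 0.94 in XiteE-del, 0.71 in XiteC-del and 0.64 in XiteC-inv, which hold no B101 library, and 0 in XiteE-inv, which like WT holds 1. With the code as a covariate the median was 0.45 in XiteE-del, 0.24 in XiteC-del, 0.20 in XiteC-inv and 0 in XiteE-inv.

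The deletions allowed trans counts to be read at X fragments that had lost most of their X contacts. In the XiteE-del libraries 3 X fragments, and in the XiteC-del libraries 1, had under 20% of the WT level with X partners, and the 4 lie between chrX:100618973 and chrX:100639613. The exact ends of the deletions were not used here. XIC-3_FOR_575 (chrX:100629520-100633845) had 1124 and 833 counts with X partners in XiteE-del, against 43054 and 49625 in WT, 1.69% of the WT level in CPM. Its counts with chromosome 5 partners were 84 and 102 in XiteE-del, against 23 and 19 in WT. XIC-3_REV_574 (chrX:100623271-100629519), at 3.96% of the WT level with X partners, had 55 and 84 counts with chromosome 5 partners in XiteE-del, against 7 and 0 in WT. XIC-3_FOR_577 (chrX:100636563-100639613), at 3.33% of the WT level in XiteC-del, had 28 and 59 counts in XiteC-del, against 33 and 1 in WT. XIC-3_FOR_573 (chrX:100618973-100623270), at 13.8% in XiteE-del, had 34 and 0 counts in XiteE-del, against 24 and 3 in WT. In CPM, the mean trans sum in the deletion was 345% of that in both WT libraries for XIC-3_FOR_575, 1548% for XIC-3_REV_574, 229% for XIC-3_FOR_577 and 113% for XIC-3_FOR_573. Against the WT library of code B100 alone it was 319.6% for XIC-3_FOR_575, 774% for XIC-3_REV_574, 118% for XIC-3_FOR_577 and 63.5% for XIC-3_FOR_573, so the direction turned for the last. None of the 4 was called by edgeR. These are small sums, and trans counts of XIC-3_FOR_575 ranged from 59 to 167 in the B100 libraries of the other edited genotypes. In the same libraries they ranged from 2 to 66 for XIC-3_REV_574 and from 0 to 81 for XIC-3_FOR_573. For XIC-3_FOR_577 the B100 libraries of the genotypes other than XiteC-del and WT were at 3 to 78. The deletion libraries lay within these ranges, except the second XiteE-del library at XIC-3_REV_574, at 84.

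Since the codes set the libraries apart, they were compared within genotype in a fit chosen after the values were seen, with genotype and code as terms. It called 26 of 520 chromosome 5 pairs (5%), 24 higher and 2 lower in B101, where 2.18% of all pairs were called. The 2 lower ones were gd5_FOR_76 to gd5_REV_61, at -3.65 ± 0.14 (log2, SE; edgeR adjusted p = 2.09e-143), and gd5_FOR_83 to gd5_REV_59, at -1.98 ± 0.38 (edgeR adjusted p = 1.78e-05). The median log2 fold change over all chromosome 5 pairs tested was 0.71 under 10 kb and 0.52 to 0.64 in the classes from 10 kb. The shift was thus not confined to short distances. Of the 24 called higher, whose median distance was 8.06 kb, 16 were among the 58 tested pairs under 10 kb apart. They included gd5_FOR_70 to gd5_REV_71, 5.88 kb apart, at 261 CPM in the B101 and 82.3 CPM in the B100 library of XiteE-inv, and 243 and 97.4 CPM in those of WT (1.49 ± 0.23 log2, edgeR adjusted p = 7.83e-09). With the chromosome 5 total as offset 9 were called, 7 higher and 2 lower, and the share of all pairs called with it is not reported here. The p-values pool the spread over all pairs and rest on 2 libraries of the code B101.

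Of trans sums, the same comparison with the trans total as offset called 106 of 1058 fragments, 34 higher and 72 lower in B101, so that 10.0% of all fragments were called. Of the 52 chromosome 5 fragments 16 were called, 2 higher and 14 lower. The 2 higher ones were gd5_FOR_62, at 2.28 ± 0.13 (log2, SE; edgeR adjusted p = 5.02e-07), and gd5_REV_65, at 0.81 (edgeR adjusted p = 0.00354). These are shares of the trans total. On the library total gd5_FOR_62 was at -0.34 and gd5_REV_65 at -1.81, and 567 fragments were called, all lower in B101. The trans background of the B101 libraries was thus lower at every chromosome 5 fragment and also differently composed. What the codes stand for was not tested.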

How the data were processed

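The deposited 5C files hold whole-number counts per pair of a forward and a reverse primer, which the authors made with Bowtie2 on mm9, per the submitters' processing notes; versions, filters and removal of PCR duplicates are not given in the sources used here. Fragment positions came from the authors' deposited BED primer lists, which have no header and count starts from 0 (adjoining fragments share a boundary), and are given 1-based. Counts of the 10 libraries (2 per genotype, 16267499 to 23928188 counts) were joined to fragments by primer name, and all names matched. Distances are between fragment midpoints.

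Levels (CPM) are counts scaled to the library total. Distance classes double from 10 kb to 320 kb, zeros included. Single values were compared by exact permutation over libraries, adjusted over 4 tests. Primer pairs and trans sums that averaged 10 or more counts were fitted with edgeR 4.0.16 (quasi-likelihood, log library or trans total as offset, genotype as group, R 4.3.3), adjusted over all features tested at 0.05, with DESeq2 1.42.0 as an alternative. The edgeR fits of pairs and of trans sums were tested on simulated counts with changes of a fixed fold size. They recovered most changes at a small spread between libraries and few at the spread of these libraries. DESeq2 was not tested in this way. At most 3.34% of the counts compared were equal between any 2 libraries, so each was used as its own sample. Alternatives were other offsets and count minimums, TMM, the code or a replicate block in the fit, medians, B100 libraries only and leaving out each library.

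The pairs named are the 5 with the highest mean level, up to 3 called pairs per direction and genotype with the smallest adjusted p (likewise X fragments by trans sums), the 3 fragments with the highest and the 3 with the lowest trans sum, and the 3 pairs over 50 kb farthest above and below the level given by distance and trans sums. The members and lists were chosen with earlier results of these data known. The series' other 5C, Capture-C, RAP and RNA data were not used here.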

Additional observations from a re-analysis of the deposited data

How the results depend on the processing

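The lower level of chromosome 5 than X in matched distance classes kept its sign and its side of the threshold under all alternatives run, at log2 -1.54 to -0.51, and at -0.77 to -0.75 without each library in turn. Of the alternatives added after seeing the data, it was -0.79 with the trans level subtracted, -0.72 without X pairs within 500 kb of the lost fragments and -0.84 without gd5_FOR_76 to gd5_REV_61. The planned version without X pairs near called X fragments could not be run, because none were called. None of the 3 differences between edited and WT libraries passed the threshold under any alternative. Without each library in turn the cis share differed by -0.256 to 0.0429 points, the trans share by -0.350 to 1.07 points and the decay exponent by 0.018 to 0.082. The trans difference was -0.196 on B100 libraries, and the decay difference -0.025 with medians.

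Called chromosome 5 pairs in XiteE-del numbered 1 with a mean of at least 1, with the code as covariate and in DESeq2. In XiteC-del they numbered 1 with a mean of at least 1 and 2 with the code as covariate. In XiteC-inv they numbered 0 with TMM, with a mean of at least 50, in 30 kb bins and in DESeq2. Without each library in turn they ranged from 0 to 4 in XiteE-del, 0 to 4 in XiteE-inv, 0 to 2 in XiteC-del and 0 to 3 in XiteC-inv. X fragments called by trans sums were 0 without any 1 library, and numbered 2 in XiteE-del, 5 in XiteE-inv and 1 in XiteC-inv in DESeq2. By code, 26 chromosome 5 pairs became 9 with the chromosome 5 total as offset, 14 with a mean of at least 50, 10 without the XiteE-inv libraries and 67 in DESeq2. The shares of all pairs called in these settings are not reported here, so the counts do not set chromosome 5 apart from other pairs. The 106 fragments became 567 on the library total and 230 in DESeq2. Single items that changed sign were gd5_FOR_62 at -0.34 and gd5_REV_65 at -1.81 on the library total, and XIC-3_FOR_133 to gd5_REV_100 at 1.59 with the replicate block and 6.90 without the first WT library, with -2.68 without the second. The cause of these changes was not tested beyond the offsets and filters themselves.

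The replicate numbers share only a number: deviations of same-numbered libraries correlated over the 474 pairs at -0.086 to 0.198 and over 0.1 in 1 of 10 genotype pairs, and not every library correlated best with its own number. With a replicate block the chromosome 5 calls were 1 in XiteE-del, 0 in XiteE-inv, 1 in XiteC-del and 1 in XiteC-inv, in each case gd5_FOR_76 to gd5_REV_61. The number 2 marks the B101 library in XiteE-inv and in WT, so block and code overlap. The differences of the single values were as in the unpaired comparison, with exact permutation p of 0.48 for both shares and 0.4 for the exponent. Trans pairs hold few counts in B101 libraries, which limits what can be seen of single trans contacts there.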

Other observations

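gd5_FOR_89 took part in 7 of the 24 chromosome 5 pairs that were higher in the B101 libraries, as counted after seeing the values. Any forward fragment can form 26 of the 676 chromosome 5 pairs, and its share of the tested pairs was not counted. These 7 pairs were 4.44 to 46.4 kb apart, and most of the 24 were short as well. Whether 7 is more than the distances would give was not tested.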
